A study of Homo sapiens with 12 samples.

Results

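The matrix metalloproteinases (MMP), the ADAM proteases (a disintegrin and metalloproteinase), their secreted relatives with thrombospondin motifs (ADAMTS) and the tissue inhibitors of metalloproteinases (TIMP) were followed in U251, an established human glioblastoma cell line. Members were all rows of the count table whose symbol was MMP, ADAM, ADAMTS or TIMP followed only by a number. This gave 65 of 20289 genes, namely 22 MMP, 20 ADAM, 19 ADAMTS and 4 TIMP genes. Of these, 37 passed the filter on low counts and were tested among 12821 genes, namely 10 MMP, 11 ADAM, 12 ADAMTS and all 4 TIMP genes. The cells carried a lentiviral control short hairpin RNA or a lentiviral short hairpin RNA against CD44 (shCD44), and were treated with the solvent DMSO or with 50 µM temozolomide for 24 h. Each of the 4 groups had 3 libraries of oligo-dT-selected RNA from cells grown in DMEM with serum. The labels give the genotype of the control hairpin groups as WT and title their temozolomide libraries NC, and all 4 groups carried a lentivirus. Cells with the control hairpin are called control cells and cells with the CD44 hairpin knockdown cells. Nothing in the labels tells if the libraries within a group came from separate cultures. The p-values therefore reflect only how these libraries spread, which may be technical.

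MMPs, ADAMs and ADAMTSs belong to the metzincins, proteases that hold a catalytic zinc ion with histidines. Secreted MMPs and ADAMTSs cut collagens, laminins and proteoglycans of the extracellular matrix, while ADAMs and the membrane-bound MMPs release the outer domains of cell surface proteins, a step called shedding. TIMPs block the active sites, and TIMP2 is also a cofactor when MMP14 activates the MMP2 proenzyme at the cell surface. CD44, the hyaluronan receptor targeted here, is itself shed by ADAM10, ADAM17 and MMP14. In glioma, MMP2, MMP9 and MMP14 are known for their part in invasion through brain tissue.

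The targeted gene checked the labels. CD44 measured 1127, 1102 and 1043 CPM in control cells with DMSO, 421, 419 and 419 in knockdown cells with DMSO, 851, 808 and 804 in control cells with temozolomide and 319.8, 326 and 333 in knockdown cells with temozolomide, where CPM is the count scaled to a fixed library size, with factors from the trimmed mean of M values (TMM). All 6 knockdown libraries were below all 6 control libraries, with a log2 fold change of -1.38 (SE 0.03, adjusted p = 3.21e-17) under DMSO and -1.33 (SE 0.03, adjusted p = 1.17e-16) under temozolomide by edgeR's quasi-likelihood test, the test used throughout. Library totals ran from 13.5 to 24.8 in units of 1e6 counts, so 3 counts correspond to 0.120 to 0.215 CPM. Of the astrocytic glioma markers, VIM was between 2442 and 3885 CPM and SOX2 between 262 and 409.8, whereas GFAP did not exceed 1.8 CPM and S100B was not tested.

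The catalytic members share a zinc-binding stretch in which histidine codons are held at fixed spacing, written HExxHxxGxxH in protein letters. It was searched in frame in the longest coding transcript of each gene (GENCODE 29, build GRCh38), over 11 codons, and is shown here because it is what makes these genes a family of proteases. The 3 histidine codons are in capitals in the members that the results below turn on.
MMP2: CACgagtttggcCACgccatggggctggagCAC
MMP14: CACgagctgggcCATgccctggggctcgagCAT
MMP15: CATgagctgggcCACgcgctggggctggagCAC
ADAM10: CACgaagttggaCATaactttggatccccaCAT
ADAM17: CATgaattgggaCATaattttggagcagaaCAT
ADAM15: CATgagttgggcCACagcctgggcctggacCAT
ADAM12: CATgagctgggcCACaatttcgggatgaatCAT
ADAM19: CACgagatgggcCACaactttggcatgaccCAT
ADAMTS6: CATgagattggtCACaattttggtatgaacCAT
ADAMTS12: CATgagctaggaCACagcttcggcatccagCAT
ADAMTS14: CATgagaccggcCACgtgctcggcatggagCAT
All 10 tested MMPs held the stretch, as did 7 of 11 tested ADAMs and 8 of 12 tested ADAMTSs. The tested ADAMs without it were ADAM11, ADAM22, ADAM23 and ADAM32, and the first 3 of these are known as adhesion and receptor proteins of neurons without protease activity. With any codon allowed at the eighth position, all 12 tested ADAMTSs matched, among them ADAMTS1, ADAMTS4, ADAMTS9 and ADAMTS15. None of the 4 TIMPs, which are inhibitors, held it.

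Levels are compared between genes per transcript length, in FPKM (fragments per kilobase of transcript, scaled by depth). ADAM9 had the highest mean over the 12 libraries at 162 FPKM (range 147 to 182). It was followed by TIMP2 at 143 (range 121 to 172) and MMP2, gelatinase A, at 105 (range 72.8 to 133). The order of the first 2 was not the same in every group, since in control cells with DMSO TIMP2 was above ADAM9 in each library, at 171, 172 and 166 FPKM against 159.7, 167 and 149.9. ADAM10 at 79, TIMP1 at 71.8, ADAM15 at 59 and TIMP3 at 56.9 FPKM came next, and neighbours in this order had overlapping ranges over the libraries. A gap separated these from ADAM17 at 18.8, MMP14 at 14.4, ADAM12 at 11.9 and ADAM19 at 10.04 FPKM. The ADAMTS genes were lower throughout, with ADAMTS15 the highest mean at 3.54 FPKM. In knockdown cells with temozolomide ADAMTS4, at 3.88, 3.67 and 3.73 FPKM, was above ADAMTS15, at 3.54, 3.15 and 3.07. The plot of levels per library shows the 37 tested members in this order within each family.

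**Figure D1:**
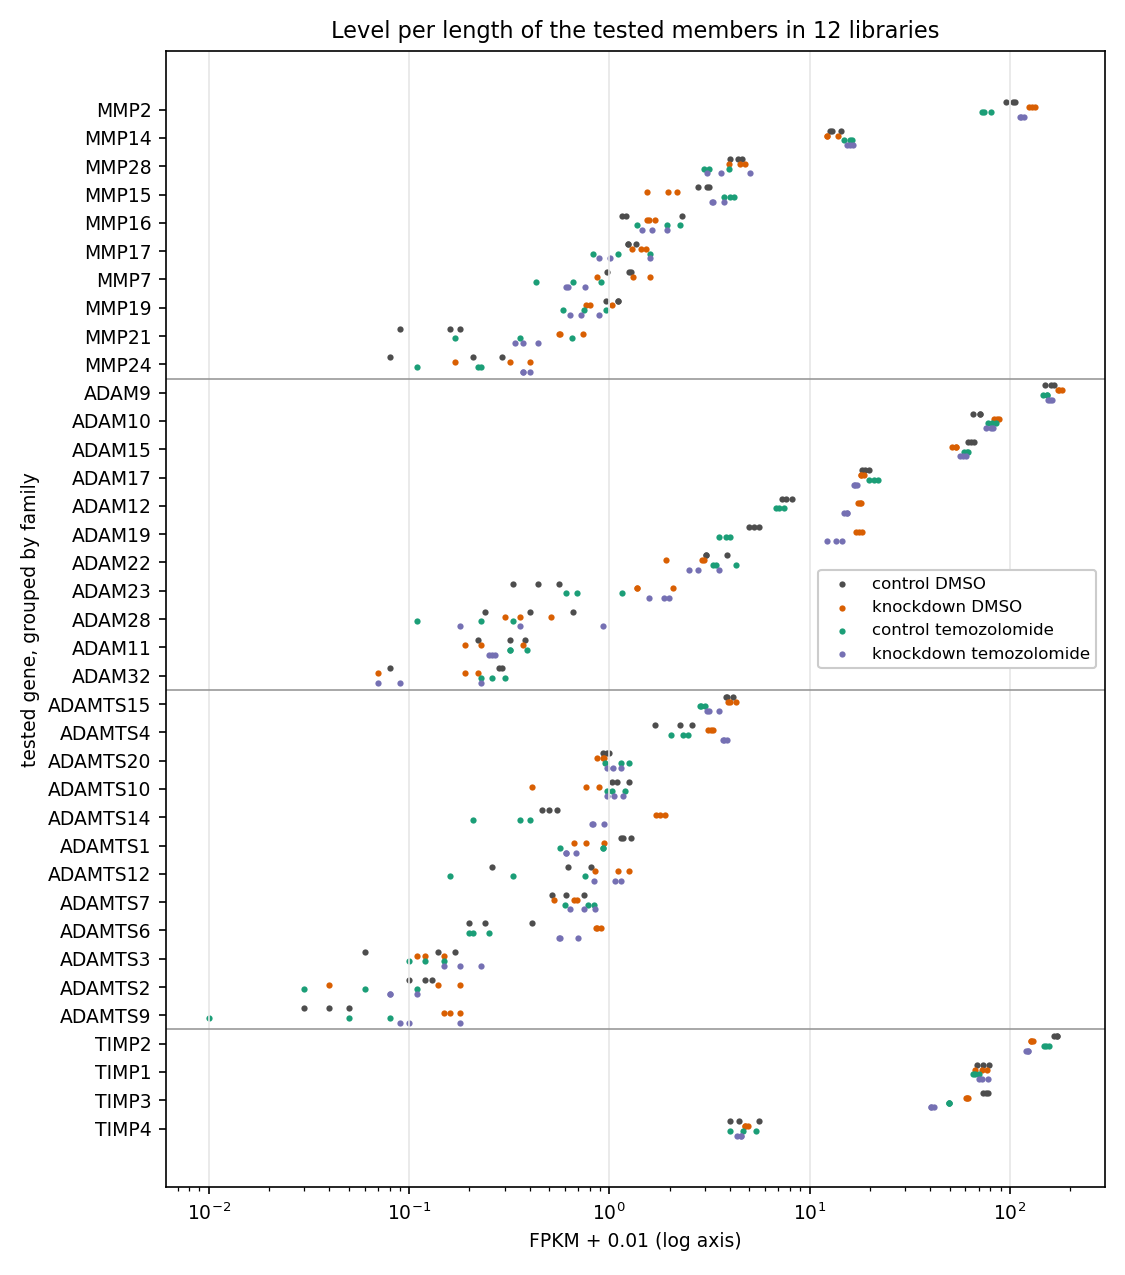
FPKM of each tested member in the 12 libraries on a log axis (0.01 added so that a value of 0 can be drawn), 1 point per library, coloured by group and ordered within each family by the mean over all libraries. ADAM9, TIMP2 and MMP2 lie highest, and the orange and purple points of ADAM12, ADAM19, ADAM23, ADAMTS14 and ADAMTS6 lie to the right of the grey and green ones.

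The 28 members that did not pass the filter had low counts in every group. MMP9, gelatinase B, had 0 to 2 counts per library, MMP1, interstitial collagenase, 0 to 11, MMP3, stromelysin, 0 to 6, and MMP13, collagenase 3, 0 to 2. No count was seen for MMP8, MMP26, MMP27, ADAM18 or ADAM33. The highest count among untested ADAMs was 21, for ADAM8, and among untested ADAMTSs 12, for ADAMTS13. A block on chromosome 11 (chr11:102520508-102955734, GRCh38, 435.2 kb, all on the minus strand) carries MMP7, MMP20, MMP27, MMP8, MMP10, MMP1, MMP3, MMP12 and MMP13 with no other gene of the table inside it. Of these 9 neighbours only MMP7, matrilysin, was tested, with 8 to 27 counts per library. ADAMTS16 had 3, 2 and 3 counts in control and 8, 8 and 8 in knockdown cells with DMSO. In a fit without the filter, 23 of the 28 could be fitted, and none of them was called with knockdown (lowest adjusted p = 0.121, for ADAMTS16 under DMSO). With temozolomide in control cells that fit called ADAMTS19 (adjusted p = 0.0486), which had 5, 3 and 2 counts there and none in control cells with DMSO.

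With CD44 knocked down under DMSO, 19 of the 37 tested members passed an adjusted p of 0.05, 13 higher and 6 lower (51.4%). Among all genes tested, 42.6% passed in this comparison, 21.1% higher and 21.4% lower. Under temozolomide, 12 members passed, 9 higher and 3 lower (32.4%, against 42.3% of all genes, 22.0% higher and 20.3% lower). Over both directions together, the member share was thus above the background under DMSO and below it under temozolomide. The median log2 fold change of the tested members was 0.04 under DMSO and 0.00 under temozolomide. Groups did not overlap in 13 members above and 8 below under DMSO (51.3% of all genes did not overlap) and in 12 above and 7 below under temozolomide (50.8% of all genes). A correction for GC content moved the split. With it, 10 members were higher and 8 lower under DMSO, so that 55.6% of the called members were higher against 40.9% of all called genes. Under temozolomide 9 were higher and 5 lower, with 64.3% of the called members higher against 44.4% of all called genes. Without the correction these shares were 68.4% against 49.7% under DMSO and 75% against 52% under temozolomide. By family, the higher members under DMSO were 3 MMPs, 5 ADAMs and 5 ADAMTSs, and the lower ones 1 MMP, 1 ADAM, 2 ADAMTSs and 2 TIMPs.

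The smallest adjusted p-values with knockdown among the members, under both treatments, were those of the meltrin-type ADAMs ADAM19 and ADAM12. ADAM19 (ENSG00000135074, chr5:157395534-157575775, minus strand, GRCh38), meltrin beta, a sheddase of neuregulin, measured 34.9, 35.4 and 32.8 CPM in control cells with DMSO, 115, 119 and 110.1 in knockdown cells with DMSO, 25.3, 22.6 and 24.2 in control cells with temozolomide and 89.1, 76.1 and 82.5 in knockdown cells with temozolomide. Its 6 knockdown libraries were all above its 6 control libraries, 3.34-fold under DMSO (log2 fold change 1.74, SE 0.06, adjusted p = 3.03e-15) and 3.41-fold under temozolomide (log2 fold change 1.77, SE 0.06, adjusted p = 4.99e-15). ADAM12 (ENSG00000148848, chr10:126012381-126388455, minus strand), meltrin alpha, which sheds heparin-binding EGF-like growth factor, measured 66.5, 62.9 and 58.9 CPM in control cells with DMSO, 142, 143 and 138 in knockdown cells with DMSO, 58.3, 54.1 and 53.2 in control cells with temozolomide and 118, 113 and 117 in knockdown cells with temozolomide. It was 2.25-fold higher under DMSO (log2 fold change 1.17, SE 0.05, adjusted p = 3.82e-14) and 2.09-fold higher under temozolomide (log2 fold change 1.07, SE 0.05, adjusted p = 1.69e-13), again with no overlap between control and knockdown libraries. ADAM23 (ENSG00000114948, chr2:206443539-206621130, plus strand), which lacks the zinc stretch and binds integrin and LGI1, measured 1.51, 1.99 and 1.76 CPM in control cells with DMSO, 4.19, 4.79 and 4.52 in knockdown cells with DMSO, 2.85, 3.02 and 2.34 in control cells with temozolomide and 4.43, 6.12 and 4.95 in knockdown cells with temozolomide. It rose by 1.36 on the log2 scale under DMSO (SE 0.19, adjusted p = 8.39e-06) and by 0.92 under temozolomide (SE 0.17, adjusted p = 1.83e-04).

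The sheddases of CD44 itself changed little. ADAM10 (ENSG00000137845, chr15:58588807-58749978, minus strand), which also cuts Notch and the amyloid precursor protein, measured 166, 174 and 158 CPM in control cells with DMSO, 204, 199 and 197 in knockdown cells with DMSO, 179, 180.4 and 189 in control cells with temozolomide and 173, 184 and 188 in knockdown cells with temozolomide. It rose 1.20-fold with knockdown under DMSO (log2 fold change 0.27, SE 0.04, adjusted p = 1.73e-05), while under temozolomide the log2 fold change was -0.01 (95% interval -0.09 to 0.08, adjusted p = 0.935). ADAM17 (ENSG00000151694, chr2:9488486-9556732, minus strand), the enzyme that releases tumour necrosis factor, measured 77.4, 79.9 and 75.8 CPM in control cells with DMSO, 74.4, 71.2 and 72.3 in knockdown cells with DMSO, 77.7, 81.4 and 82.9 in control cells with temozolomide and 66.2, 65.1 and 64.6 in knockdown cells with temozolomide. Here the knockdown groups were lower, with a call under temozolomide only (log2 fold change -0.30, SE 0.04, adjusted p = 4.93e-06). Under DMSO its log2 fold change was -0.10 (adjusted p = 0.0654), and the call was made there after GC correction (-0.20, adjusted p = 0.000244).

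ADAM15 (ENSG00000143537, chr1:155050566-155062775, plus strand), metargidin, measured 182, 179 and 191 CPM in control cells with DMSO, 149.6, 150.4 and 143 in knockdown cells with DMSO, 169.5, 166 and 162 in control cells with temozolomide and 161, 155 and 150.4 in knockdown cells with temozolomide. It fell with knockdown under DMSO (log2 fold change -0.32, SE 0.04, adjusted p = 9.97e-07), and under temozolomide its log2 fold change was -0.09 with an adjusted p of 0.0536, which passed with several other settings (0.00313 after GC correction). ADAM9, meltrin gamma, with the highest mean level per length over the 12 libraries, measured 682, 714 and 641 CPM in control cells with DMSO, 757, 734 and 724 in knockdown cells with DMSO, 599, 624 and 625 in control cells with temozolomide and 615, 647 and 628 in knockdown cells with temozolomide. Its change under DMSO was small (log2 fold change 0.12, SE 0.04, adjusted p = 0.0113) and was not called after GC correction (0.03, adjusted p = 0.499), nor without control DMSO library 3 (0.08, adjusted p = 0.0746) or knockdown DMSO library 1 (0.10, adjusted p = 0.0582). In GENCODE 29, ADAM15 shares 306 exon bases with DCST1 on the same strand. On the opposite strand, ADAM17 shares 1323 with IAH1 and ADAM19 shares 62 with CYFIP2. MMP2 shares 174 with AC007336.3 on the same strand, TIMP2 shares 198 with CEP295NL on the same strand and 367 with AC022966.1, ADAM10 shares 136 with AC018904.1 and MMP16 shares 118 with AC090578.1. Where the counting did not use strand or shared reads by model, part of these counts could belong to the neighbour.

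Among the ADAMTS genes the called changes with knockdown under temozolomide were all rises. ADAMTS14 (ENSG00000138316, chr10:70672803-70762441, plus strand), a procollagen N-propeptidase, measured 2.57, 2.79 and 3.11 CPM in control cells with DMSO, 10.1, 9.71 and 9.25 in knockdown cells with DMSO, 2.04, 1.88 and 1.11 in control cells with temozolomide and 4.37, 4.78 and 4.23 in knockdown cells with temozolomide. It was 3.41-fold higher under DMSO (log2 fold change 1.77, SE 0.16, adjusted p = 1.57e-08) and 2.61-fold higher under temozolomide (log2 fold change 1.39, SE 0.18, adjusted p = 3.29e-06), with no overlap. ADAMTS6 (ENSG00000049192, chr5:65148736-65481920, minus strand), which acts on fibrillin-rich matrix, measured 1.45, 1.72 and 2.94 CPM in control cells with DMSO, 6.19, 6.21 and 6.46 in knockdown cells with DMSO, 1.36, 1.69 and 1.35 in control cells with temozolomide and 4.73, 3.92 and 3.8 in knockdown cells with temozolomide. It rose by 1.61 (SE 0.21, adjusted p = 1.97e-06) and 1.51 (SE 0.22, adjusted p = 1.10e-05) on the log2 scale. ADAMTS12 (ENSG00000151388, chr5:33523535-33892192, minus strand), a protease of cartilage oligomeric matrix protein, measured 1.38, 2.45 and 1.47 CPM in control cells with DMSO, 3.0, 5.72 and 4.93 in knockdown cells with DMSO, 1.72, 1.03 and 1.7 in control cells with temozolomide and 3.65, 4.63 and 4.09 in knockdown cells with temozolomide.

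The ADAMTS12 libraries did not overlap between control and knockdown cells under either treatment. Its log2 fold changes were 1.38 (SE 0.26, adjusted p = 2.28e-04) and 1.45 (SE 0.26, adjusted p = 1.26e-04), and the former was not called on log2(FPKM + 1) (0.42, adjusted p = 0.0682). ADAMTS9, a proteoglycanase, was far lower, with a highest library of 0.966 CPM. Its log2 fold change was 2.26 under DMSO (adjusted p = 0.00606) and 1.51 under temozolomide (adjusted p = 0.0452), and the latter was not called with DESeq2 (adjusted p = 0.0579) or without 10 of the 12 libraries in turn, the lowest value coming without control temozolomide library 3 (1.00, adjusted p = 0.155). ADAMTS4, aggrecanase 1, measured 18, 18.4 and 16.9 CPM in control cells with DMSO, 19.8, 19.7 and 21.1 in knockdown cells with DMSO, 18.8, 17.1 and 17.5 in control cells with temozolomide and 26.1, 24.5 and 25.6 in knockdown cells with temozolomide. The knockdown rise of ADAMTS4 under temozolomide (log2 fold change 0.51, SE 0.07, adjusted p = 6.12e-06) was called with every setting tried, whereas that under DMSO (log2 fold change 0.19, SE 0.07, adjusted p = 0.0431) was not called with DESeq2 (adjusted p = 0.106), nor without 6 of the 12 libraries in turn, among them knockdown DMSO library 3 (0.16, adjusted p = 0.16).

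A pair of ADAMTS genes went down with knockdown under DMSO. ADAMTS10, a fibrillin-associated relative of ADAMTS6, measured 3.88, 4.18 and 4.11 CPM in control cells with DMSO, 1.6, 2.4 and 2.59 in knockdown cells with DMSO, 3.73, 3.57 and 4.1 in control cells with temozolomide and 2.87, 3.49 and 3.09 in knockdown cells with temozolomide, a fall under DMSO of 1.82-fold (log2 fold change -0.87, SE 0.19, adjusted p = 8.57e-04). ADAMTS1, which cuts versican and aggrecan, measured 4.87, 5.31 and 4.64 CPM in control cells with DMSO, 3.06, 3.63 and 3.0 in knockdown cells with DMSO, 2.2, 3.45 and 3.69 in control cells with temozolomide and 2.99, 2.2 and 2.51 in knockdown cells with temozolomide. Its change under DMSO was -0.61 (SE 0.19, adjusted p = 0.0141), which did not pass without knockdown DMSO library 3 (adjusted p = 0.0571). Under temozolomide neither was called (-0.26 and -0.26). ADAMTS2, ADAMTS3, ADAMTS7 and ADAMTS20 were called in none of the comparisons, with means over the 12 libraries of 0.0883, 0.13, 0.676 and 1.0 FPKM.

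Under DMSO, MMP2, MMP16 and MMP21 were called higher and MMP15 lower with knockdown, and under temozolomide MMP2 alone was called. MMP2 (ENSG00000087245, chr16:55389700-55506691, plus strand) measured 282, 282 and 273 CPM in control cells with DMSO, 336, 345 and 340.1 in knockdown cells with DMSO, 221, 194 and 203 in control cells with temozolomide and 312, 289 and 290.2 in knockdown cells with temozolomide. Knockdown libraries were above control libraries under both treatments, by 0.29 on the log2 scale under DMSO (SE 0.04, adjusted p = 1.03e-05) and 0.53 under temozolomide (SE 0.04, adjusted p = 2.66e-09). MMP15 (ENSG00000102996, chr16:58025566-58046901, plus strand), a membrane-bound MMP, measured 11.6, 13.3 and 13 CPM in control cells with DMSO, 8.85, 6.33 and 7.98 in knockdown cells with DMSO, 16.9, 14.9 and 16 in control cells with temozolomide and 14.7, 12.9 and 12.8 in knockdown cells with temozolomide. It fell 1.63-fold with knockdown under DMSO (log2 fold change -0.71, SE 0.11, adjusted p = 3.73e-05). Under temozolomide the log2 fold change was -0.25 (adjusted p = 0.0533), which passed after GC correction (adjusted p = 0.0294).

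MMP14 (ENSG00000157227, chr14:22836557-22849027, plus strand), which activates MMP2 and cuts CD44, measured 41.7, 37.8 and 38.3 CPM in control cells with DMSO, 41.3, 36.4 and 38.5 in knockdown cells with DMSO, 47.2, 45.2 and 46.8 in control cells with temozolomide and 44.5, 43.3 and 46.7 in knockdown cells with temozolomide. Its knockdown log2 fold changes were -0.02 (95% interval -0.14 to 0.10) and -0.05 (95% interval -0.17 to 0.06), neither of them called. MMP16, another membrane-bound MMP, measured 15.7, 13.9 and 14.4 CPM in control cells with DMSO, 18.2, 17.9 and 19.7 in knockdown cells with DMSO, 17, 15.7 and 19.2 in control cells with temozolomide and 18, 21.5 and 16.3 in knockdown cells with temozolomide. Its change under DMSO (log2 fold change 0.35, SE 0.10, adjusted p = 0.00884) was not called after GC correction (0.23, adjusted p = 0.0729) or on log2(FPKM + 1) (0.05, adjusted p = 0.828). MMP21, known for its role in left-right asymmetry of the embryo, was higher with knockdown under DMSO (adjusted p = 0.00272) at a highest library of only 1.12 CPM.

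Both abundant TIMPs that changed went down. TIMP2 (ENSG00000035862, chr17:78852977-78925387, minus strand) measured 603, 608 and 585 CPM in control cells with DMSO, 438, 447 and 437 in knockdown cells with DMSO, 533, 499 and 509.8 in control cells with temozolomide and 402, 405 and 397 in knockdown cells with temozolomide. It fell 1.36-fold under DMSO (log2 fold change -0.44, SE 0.03, adjusted p = 4.20e-10) and 1.28-fold under temozolomide (log2 fold change -0.36, SE 0.03, adjusted p = 1.05e-08), with no overlap. TIMP3 (ENSG00000100234, chr22:32801701-32863043, plus strand), the matrix-bound inhibitor that also blocks ADAM17, measured 369.9, 362 and 352 CPM in control cells with DMSO, 279, 289 and 281 in knockdown cells with DMSO, 227, 226 and 225 in control cells with temozolomide and 185, 180.0 and 181 in knockdown cells with temozolomide. Its knockdown falls were 1.28-fold (log2 fold change -0.35, SE 0.03, adjusted p = 1.31e-08) and 1.24-fold (log2 fold change -0.32, SE 0.03, adjusted p = 1.05e-07).

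TIMP1 (ENSG00000102265, chrX:47582313-47586789, plus strand), a secreted inhibitor, measured 60.2, 56.6 and 65.1 CPM in control cells with DMSO, 61.8, 58.4 and 53.9 in knockdown cells with DMSO, 55.8, 53.7 and 52.1 in control cells with temozolomide and 59.4, 54 and 56.1 in knockdown cells with temozolomide. TIMP1 libraries overlapped between control and knockdown cells, with log2 fold changes of -0.07 (95% interval -0.19 to 0.05) and 0.06 (95% interval -0.06 to 0.18). TIMP4 was 5.78 ± 1.01 CPM (SD, n = 3) in control cells with DMSO and 5.78 ± 0.128 in knockdown cells with DMSO, and was called in no comparison. The plot of CPM per library shows 12 of the members discussed.

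**Figure D2:**
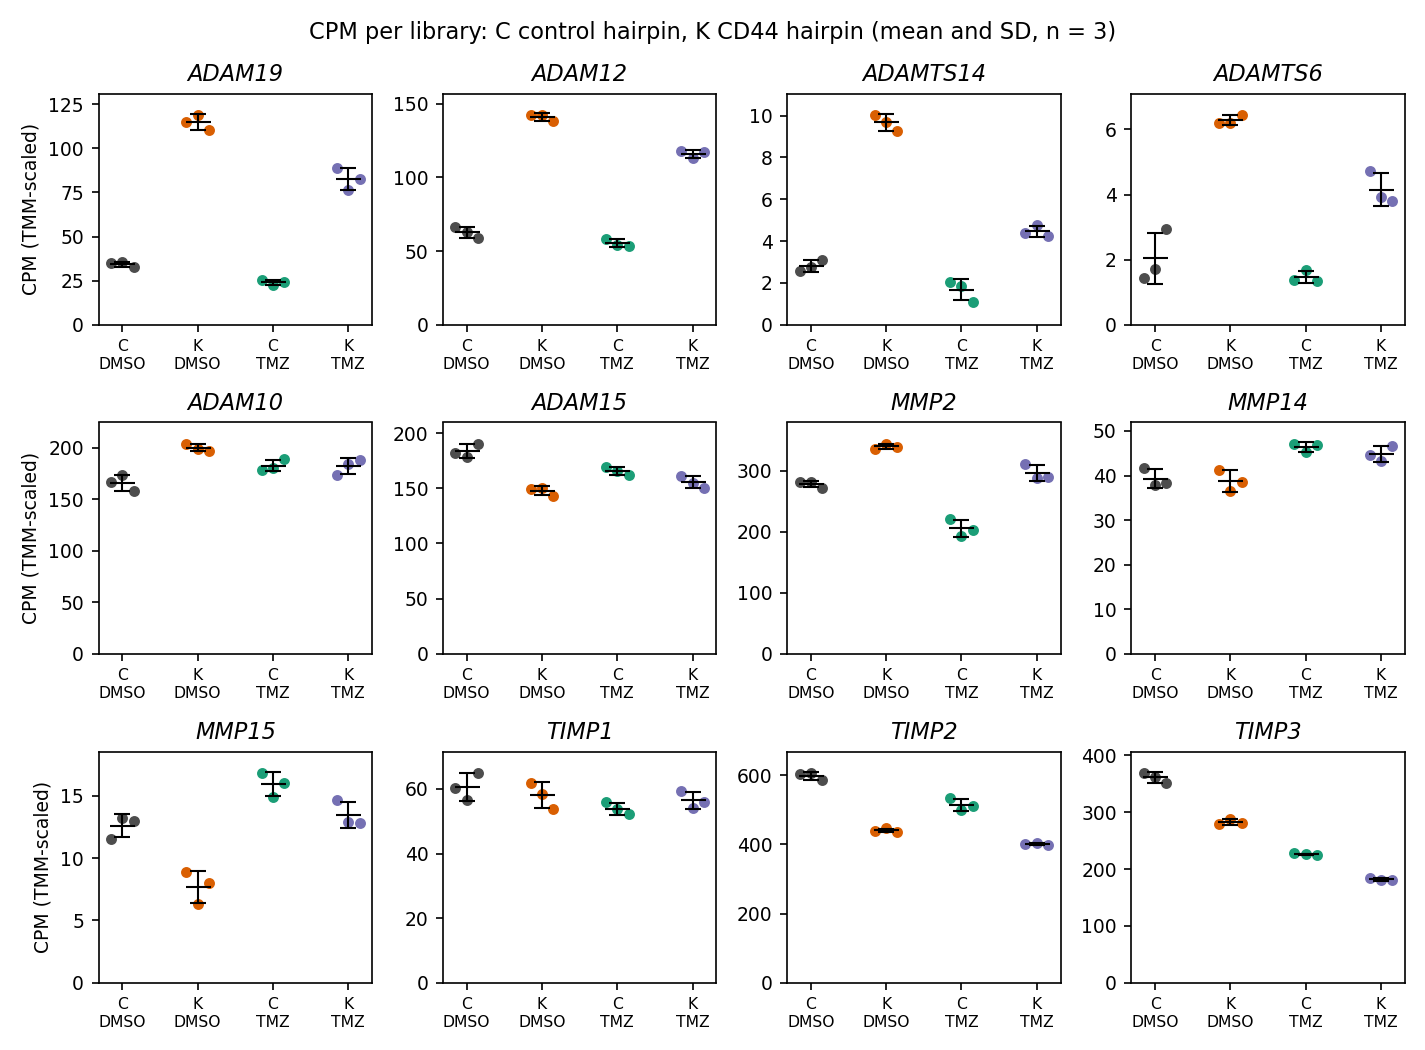
CPM of 12 members in each library, with 1 point per library and bars at the mean and SD (n = 3), in control (C) and knockdown (K) cells with DMSO or temozolomide (TMZ), each axis starting at 0. ADAM19, ADAM12, ADAMTS14 and ADAMTS6 are higher and TIMP2 and TIMP3 lower in both knockdown groups, whereas TIMP1 overlaps between them and MMP14 is higher in both temozolomide groups.

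The knockdown comparisons under DMSO and under temozolomide share no library, but both set the CD44 hairpin against the control hairpin. The labels name no other hairpin against CD44, so effects of this hairpin other than on CD44 cannot be told apart. Of the 37 members, 11 were called in the same direction in both, 9 higher and 2 lower, none in opposite directions, 8 under DMSO only, 1 under temozolomide only and 17 in neither. The 9 were ADAM12, ADAM19, ADAM23, ADAMTS4, ADAMTS6, ADAMTS9, ADAMTS12, ADAMTS14 and MMP2, and the 2 were TIMP2 and TIMP3. Among all 12821 genes tested, 3726 were called in the same direction in both, 1917 higher and 1809 lower. Another 20 were called in opposite directions and 5683 in neither. Across these 37 genes, which are not independent replicates and share libraries and their depth, the 2 sets of log2 fold changes had a Pearson r of 0.83 and a Spearman rho of 0.83. For all 12821 genes these were 0.68 and 0.73. The scatter of knockdown changes shows both sets for each gene.

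**Figure D3:**
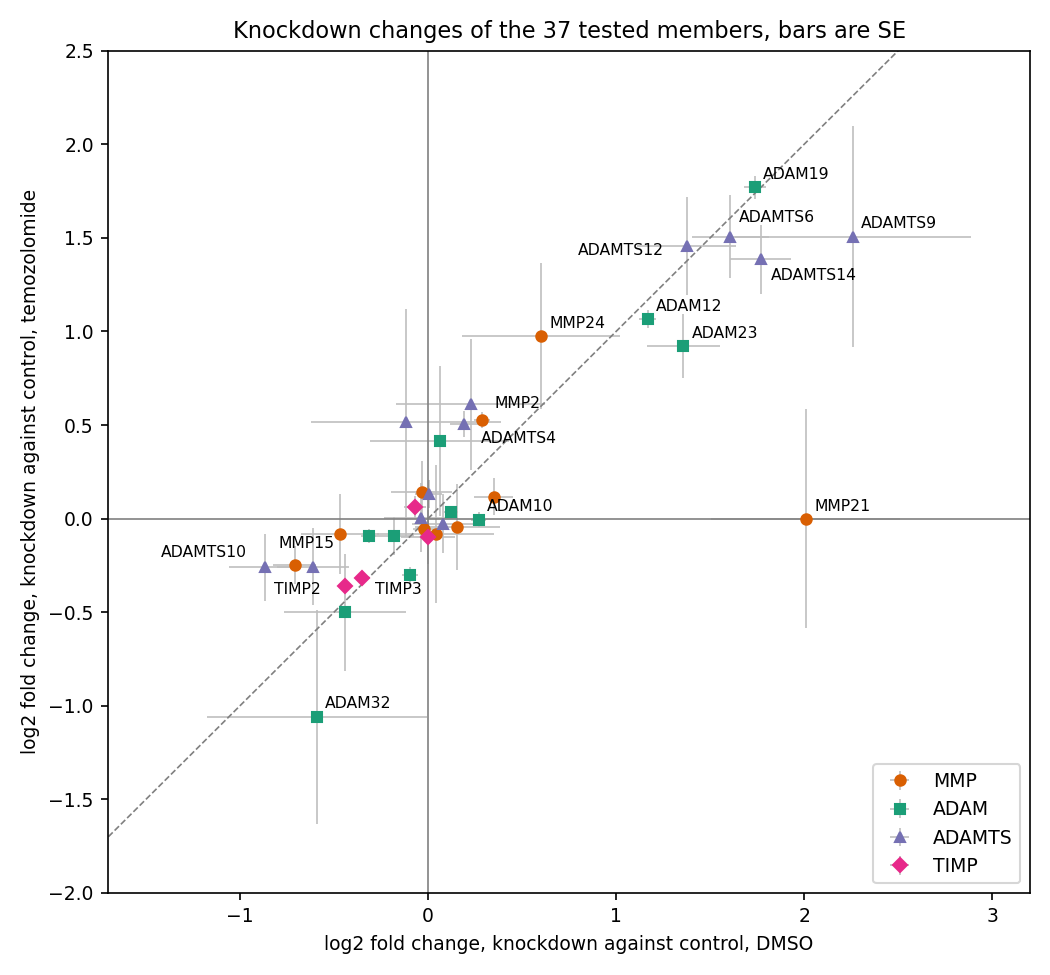
Log2 fold change of knockdown against control under DMSO (x) and under temozolomide (y) for the 37 tested members, with SE bars, symbols by family, and a dashed line where both are equal. ADAM19, ADAM12, ADAM23 and 4 ADAMTS genes lie at the upper right near the line, TIMP2 and TIMP3 lie below 0 on both axes, and MMP21 lies at 2.01 and 0.00.

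Temozolomide in control cells changed 15 of the 37 members, 4 higher and 11 lower (40.5%, against 27.5% of all genes, 11.7% higher and 15.8% lower). In knockdown cells it again changed 15, with 3 higher and 12 lower (40.5%, against 22.3% of all genes, 9.05% higher and 13.2% lower). Median log2 fold changes of the members were -0.14 and -0.15, where those of all genes were 0.00 and 0.00. Groups did not overlap for 5 members above and 14 below in control cells (39.7% of all genes) and for 5 above and 15 below in knockdown cells (37.2% of all genes). Another scaling moved the split. With library totals alone, 6 members were higher and 7 lower in control cells (46.2% of the called members higher, against 68.9% of all called genes), and 5 higher and 8 lower in knockdown cells (38.5% against 70.1%). With the main scaling these shares were 26.7% against 42.6% and 20% against 40.6%. On log2(FPKM + 1), where 27 of the 37 members reached 1 FPKM in 3 libraries and were tested, 8 were called in control cells.

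TIMP3 had the strongest fall with temozolomide among the abundant members, by 0.67 on the log2 scale in control cells (SE 0.03, adjusted p = 5.83e-12) and by 0.64 in knockdown cells (SE 0.03, adjusted p = 1.39e-11). Its lowest library without the drug, at 279 CPM, was above its highest library with it, at 227. TIMP2 fell less, by 0.22 in control cells (adjusted p = 2.46e-05) and by 0.13 in knockdown cells (adjusted p = 0.00406), and the latter was not called with library totals alone (-0.07, adjusted p = 0.0858). TIMP1 was called in control cells at -0.17 (adjusted p = 0.0346), a call lost after GC correction (-0.08, adjusted p = 0.292) and without control DMSO library 1 (-0.17, adjusted p = 0.077) or 3 (-0.11, adjusted p = 0.214) or control temozolomide library 2 (-0.17, adjusted p = 0.0869) or 3 (-0.15, adjusted p = 0.123).

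MMP2 also fell with temozolomide, by 0.43 on the log2 scale in control cells (SE 0.04, adjusted p = 2.06e-07) and by 0.20 in knockdown cells (SE 0.04, adjusted p = 0.00183). The membrane-bound MMP14 and MMP15 went the other way. MMP14 rose by 0.24 (SE 0.06, adjusted p = 0.0026) in control cells and 0.21 (SE 0.06, adjusted p = 0.0105) in knockdown cells, the latter not called without knockdown DMSO library 2 (0.16, adjusted p = 0.0766). MMP15 rose by 0.34 (SE 0.10, adjusted p = 0.0162) and 0.80 (SE 0.11, adjusted p = 2.33e-05). The rise in control cells did not pass without control DMSO library 1 (0.29, adjusted p = 0.0823) or without control temozolomide library 1 (0.30, adjusted p = 0.0726). MMP7 was called lower in knockdown cells (log2 fold change -0.95, SE 0.34, adjusted p = 0.05 after rounding, just under the threshold) at 8 to 27 counts per library, and 7 of the settings other than leaving out a library lost that call, as did leaving out 9 of the 12 libraries in turn (adjusted p up to 0.202, at -0.75 without knockdown DMSO library 1).

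Most ADAM and ADAMTS calls with temozolomide were falls. ADAM19 fell by 0.51 in control cells (SE 0.07, adjusted p = 1.38e-05) and by 0.48 in knockdown cells (SE 0.05, adjusted p = 9.21e-07). ADAM12 fell by 0.28 in knockdown cells (adjusted p = 6.29e-05) and by 0.18 in control cells (adjusted p = 0.00963), where library totals alone gave no call (-0.11, adjusted p = 0.085). That call was also lost without control DMSO library 1 (-0.13, adjusted p = 0.0873) or control temozolomide library 3 (-0.15, adjusted p = 0.0522). ADAM9 fell by 0.14 (adjusted p = 0.00661) and by 0.23 (adjusted p = 1.12e-04), the former not called with library totals alone (-0.07, adjusted p = 0.128) or without control DMSO library 2 (-0.10, adjusted p = 0.0512). ADAM17 was called in knockdown cells alone, at -0.15 (adjusted p = 0.0125), and not with library totals alone (-0.09, adjusted p = 0.118) or without knockdown DMSO library 1 (-0.14, adjusted p = 0.0546).

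ADAMTS15, a proteoglycanase, measured 25.9, 24.1 and 23.7 CPM in control cells with DMSO, 23.6, 26 and 24.3 in knockdown cells with DMSO, 17.8, 16.8 and 17 in control cells with temozolomide and 20.5, 18.3 and 17.9 in knockdown cells with temozolomide. It fell by 0.51 in control cells (SE 0.07, adjusted p = 3.25e-05) and by 0.38 in knockdown cells (SE 0.07, adjusted p = 8.00e-04), while its knockdown changes were 0.00 and 0.13, neither called. ADAMTS14 fell by 0.72 (SE 0.20, adjusted p = 0.00986) in control cells and by 1.11 (SE 0.15, adjusted p = 1.35e-05) in knockdown cells, and the former was not called without control temozolomide library 3 (-0.52, adjusted p = 0.054). ADAMTS1 was lower in control cells by 0.69 (adjusted p = 0.00982), and ADAMTS6 in knockdown cells by 0.60 (adjusted p = 0.023). The ADAMTS1 call was lost without control temozolomide library 1 (-0.47, adjusted p = 0.0695). ADAMTS6 was not called when any knockdown DMSO library was left out (-0.58 to -0.61, adjusted p from 0.0513 to 0.0644), nor without knockdown temozolomide library 2 or 3 (-0.55 each, adjusted p = 0.084 and 0.0694). ADAMTS4 was the exception, rising in knockdown cells by 0.32 (adjusted p = 0.0022), though not on log2(FPKM + 1) (0.18, adjusted p = 0.229). ADAM23 rose in control cells by 0.64 (adjusted p = 0.023), which was not called without control DMSO library 1 (0.55, adjusted p = 0.0911) or 3 (0.65, adjusted p = 0.0558) or control temozolomide library 1 (0.61, adjusted p = 0.0624) or 2 (0.58, adjusted p = 0.0758). The map of changes shows all 37 members in the 4 comparisons.

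**Figure D4:**
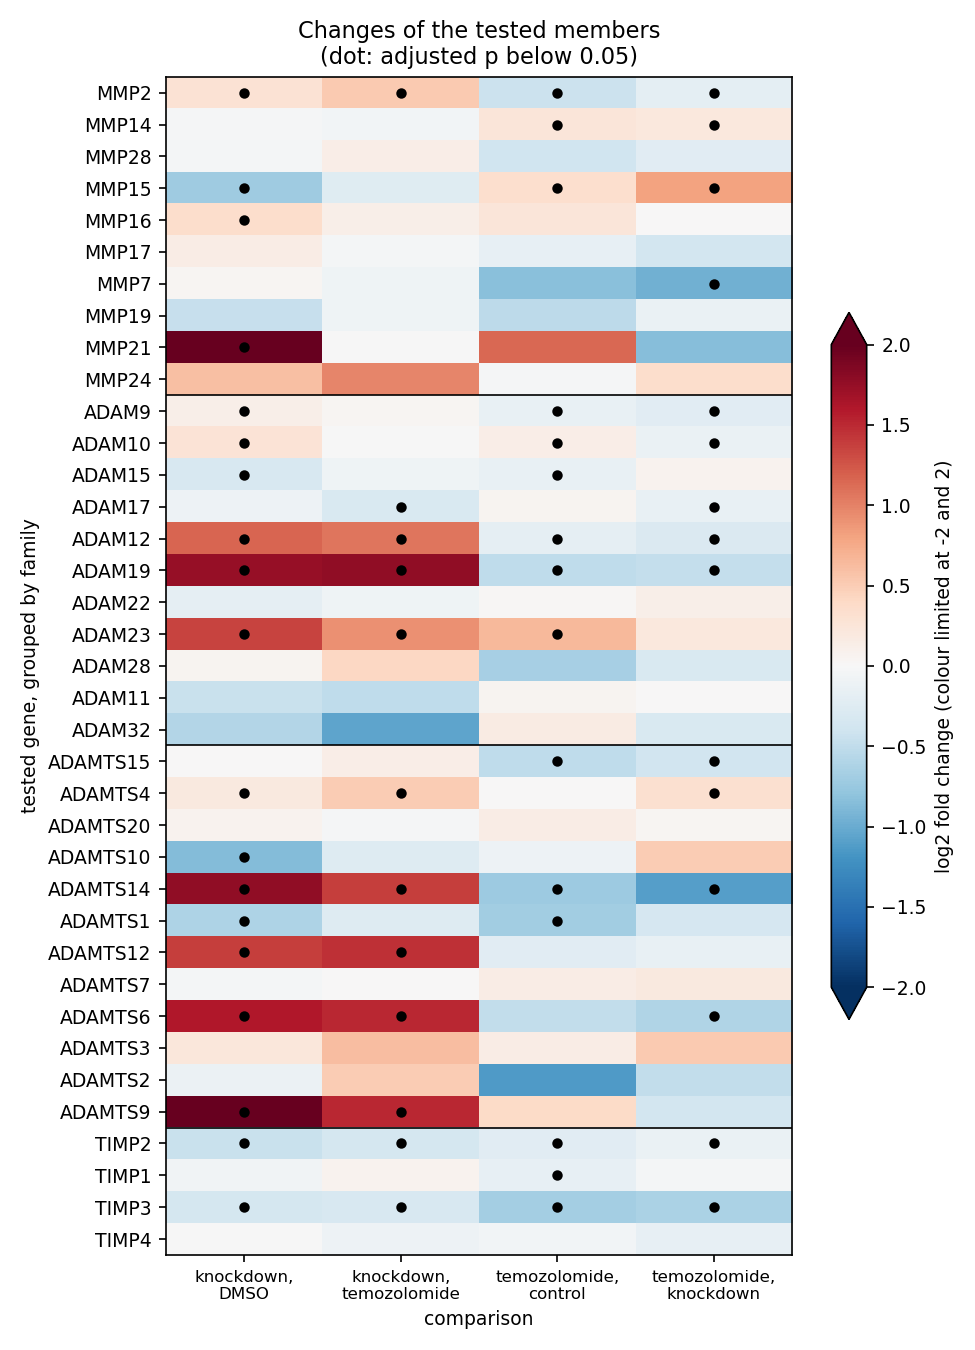
Log2 fold change of each tested member (rows, by family) in the 4 comparisons of 2 groups (columns), red for higher and blue for lower with knockdown or with temozolomide, and a dot where the adjusted p was below 0.05. The knockdown columns hold 13 and 9 higher calls, and the temozolomide columns 11 and 12 lower calls.

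The temozolomide comparisons in control and in knockdown cells share no library. In both, 2 members were called higher (MMP14 and MMP15) and 8 lower (ADAM9, ADAM12, ADAM19, ADAMTS14, ADAMTS15, MMP2, TIMP2 and TIMP3), while 4 were called in control cells only, 4 in knockdown cells only and 18 in neither. Among all 12821 genes tested, 522 were called higher and 1099 lower in both, 21 in opposite directions and 8080 in neither. ADAM10 was called in opposite directions. It was higher with temozolomide in control cells (log2 fold change 0.14, adjusted p = 0.015) and lower in knockdown cells (-0.14, adjusted p = 0.0187). The difference between the responses, knockdown minus control, was tested directly and was called for 2 of 37 members, 1 lower and 1 higher, against 1.05% of all genes (0.437% higher and 0.616% lower). For ADAM10 it was -0.27 (SE 0.06, 95% interval -0.39 to -0.15, adjusted p = 0.027) and for ADAM15 0.22 (SE 0.05, 95% interval 0.11 to 0.34, adjusted p = 0.0491). Neither difference was called after GC correction (-0.17, adjusted p = 0.158, and 0.08, adjusted p = 0.495). Leaving out libraries in turn lost the ADAM10 difference for 6 of 12 (adjusted p from 0.0504 to 0.1) and the ADAM15 difference for 9 of 12 (from 0.0758 to 0.146). The ADAM10 call in control cells was lost after GC correction (0.05, adjusted p = 0.249) and without control DMSO library 3 (0.10, adjusted p = 0.0815) or control temozolomide library 3 (0.11, adjusted p = 0.0827). Its call in knockdown cells was lost with library totals alone (-0.07, adjusted p = 0.169) and without knockdown DMSO library 1 (-0.12, adjusted p = 0.0736) or knockdown temozolomide library 1 (-0.10, adjusted p = 0.0966). With temozolomide, the ADAM15 log2 fold change was -0.15 in control cells (adjusted p = 0.00584) and 0.08 in knockdown cells (adjusted p = 0.173). The former call was lost after GC correction (-0.04, adjusted p = 0.37) and with library totals alone (-0.08, adjusted p = 0.111). The latter was called with library totals alone (0.14, adjusted p = 0.0116) and on log2(FPKM + 1) (0.13, adjusted p = 0.0361). The MMP2 difference was 0.24 (95% interval 0.11 to 0.36, adjusted p = 0.0529), and passed with DESeq2 (0.23, adjusted p = 0.0233).

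Summed over each family, single genes made up a large share of the levels per length. MMP2 made up a mean of 78.8% of the MMP sum, ADAM9 46.7% of the ADAM sum, TIMP2 51.7% of the TIMP sum and ADAMTS15 28.3% of the ADAMTS sum. The MMP sum was 128.5 ± 6.49 FPKM (SD, n = 3) in control cells with DMSO, 155 ± 3.03 in knockdown cells with DMSO, 104 ± 6.05 in control cells with temozolomide and 143 ± 4.05 in knockdown cells with temozolomide. These 4 groups did not overlap. The TIMP sum ran the other way with knockdown, at 324 ± 3.81, 267 ± 5.34, 275 ± 6.93 and 241 ± 5.33 FPKM in the same order. The ADAM sum was 329 ± 6.86, 376 ± 7.91, 330.4 ± 5.21 and 348 ± 3.72 FPKM, with both control groups overlapping. The ADAMTS sum was lowest, at 11.8 ± 0.63, 14.7 ± 0.65, 10.3 ± 0.165 and 13.5 ± 0.165 FPKM, higher with knockdown although ADAMTS15 was called with knockdown under neither treatment.

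The ratio of the TIMP sum to the MMP sum was 2.44, 2.48 and 2.66 in control cells with DMSO and 2.54, 2.71 and 2.66 in control cells with temozolomide. In knockdown cells it was 1.77, 1.74 and 1.64 with DMSO and 1.74, 1.70 and 1.61 with temozolomide. TIMP2 over MMP2 was 1.61, 1.66 and 1.74 against 1.02, 1.00 and 0.957 under DMSO, and 1.97, 2.04 and 2.04 against 1.09, 1.1 and 1.02 under temozolomide, again control before knockdown. All 6 knockdown libraries were below all 6 control libraries in both ratios. Within 1 treatment, with 3 libraries against 3, an exact permutation test cannot go below 0.10. No test was made on either ratio. These are ratios of RNA levels, and protein and enzyme activity were not measured.

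**Figure D5:**
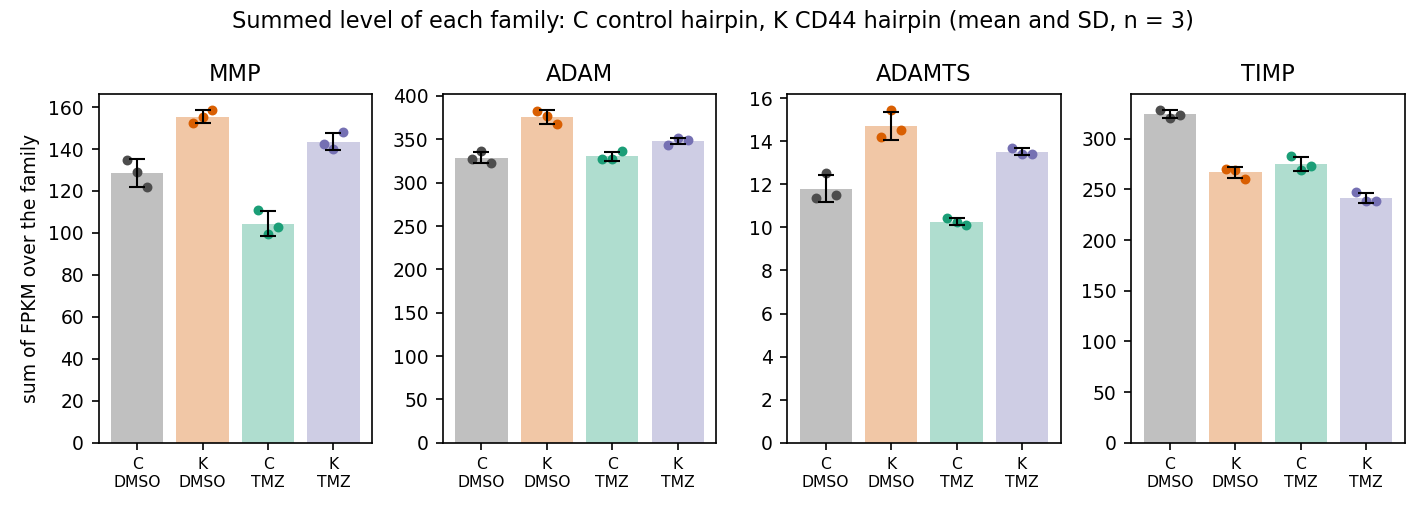
Sum of FPKM over all members of each family per library (points), with bars at the group mean and SD (n = 3), for control (C) and knockdown (K) cells with DMSO or temozolomide (TMZ), on axes starting at 0. The MMP and ADAMTS sums are higher and the TIMP sum lower in knockdown than in control cells under both treatments.

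Genes that act with the members were taken from 6 lists chosen with earlier results of these data known, so their counts were not tested against the background. Of all genes tested, 21.1% were higher and 21.4% lower with knockdown under DMSO, and 22.0% and 20.3% under temozolomide. With temozolomide, 11.7% were higher and 15.8% lower in control cells, and 9.05% and 13.2% in knockdown cells. Of 27 tested membrane proteins that ADAMs or MMPs shed, 14 were higher and 2 lower with knockdown under DMSO and 16 higher and 2 lower under temozolomide, with medians of 0.29 and 0.26. CD44 was among the lower ones by design. L1CAM, an adhesion molecule shed by ADAM10, was 7.28 ± 1.08 CPM (SD, n = 3) in control and 19.2 ± 0.788 in knockdown cells with DMSO (log2 fold change 1.41, adjusted p = 1.26e-08). AXL, a receptor tyrosine kinase shed by ADAM10 and ADAM17, was 103 ± 4.0 and 231 ± 3.62 CPM (log2 fold change 1.16, adjusted p = 3.25e-13). With temozolomide, 2 of these 27 were higher and 10 lower in control cells, and 3 higher and 9 lower in knockdown cells.

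Of 16 tested activators and partners, 4 were higher and 7 lower with knockdown under DMSO, and 4 higher and 2 lower under temozolomide. TSPAN5, a tetraspanin that guides ADAM10, rose from 10.5 ± 1.42 to 24.4 ± 2.83 CPM (adjusted p = 1.68e-08). PLAU, urokinase, which feeds the plasmin that activates proMMPs, rose from 88.2 ± 3.93 to 168 ± 7.8 CPM (adjusted p = 5.29e-11). PCSK5, a furin-like proprotein convertase, fell from 56.9 ± 3.22 to 35.9 ± 1.47 CPM (adjusted p = 1.70e-09). With temozolomide 1 of the 16 was higher and 8 lower in control cells, and 1 higher and 4 lower in knockdown cells.

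Of 8 other tested inhibitors and clearance genes, 4 were higher and 1 lower with knockdown under each treatment, and 5 were lower with temozolomide in each kind of cell. SERPINE2, protease nexin 1, rose by 0.46 and 0.47 (adjusted p = 8.78e-08 and 8.73e-08). SPOCK1, a testican that restrains MMP14 activation of MMP2, did not pass with knockdown under DMSO (log2 fold change -0.00, 95% interval -0.17 to 0.16) and fell by 0.68 with temozolomide in control cells (adjusted p = 3.70e-06).

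Among 16 tested matrix substrates, 7 were higher and 4 lower with knockdown under DMSO, 8 higher and 4 lower under temozolomide, and 7 and 6 were lower with temozolomide in control and knockdown cells with 1 higher in each. THBS1, thrombospondin 1, rose with knockdown (0.70, adjusted p = 1.56e-11) and fell with temozolomide by 0.83 in control cells (adjusted p = 1.39e-11). COL1A2, a chain of type I collagen, fell with temozolomide by 0.92 (adjusted p = 7.16e-12), and VCAN, versican, a substrate of ADAMTS proteases, by 0.60 (adjusted p = 1.02e-09). Of 6 other tested metzincins and relatives, 1 was higher with knockdown under DMSO and 2 under temozolomide. PAPPA, a protease of insulin-like growth factor binding proteins, was higher in both (0.99 and 0.84, adjusted p = 7.33e-07 and 1.17e-05). BMP1, a procollagen C-proteinase, was called higher under temozolomide (0.31, adjusted p = 6.08e-04), and TLL1, its relative, fell with temozolomide in knockdown cells by 0.36 (adjusted p = 0.0126). BMP1 was also called under DMSO after GC correction (0.23, adjusted p = 0.00409), with library totals alone (0.19, adjusted p = 0.0255) and without knockdown DMSO library 1 (0.19, adjusted p = 0.0401). The TLL1 call was lost on log2(FPKM + 1) (-0.51, adjusted p = 0.167) and without knockdown DMSO library 3 (-0.31, adjusted p = 0.0675) or knockdown temozolomide library 3 (-0.31, adjusted p = 0.0504).

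Of 18 tested transcription factors known to bind promoters of protease genes, 11 were higher and 5 lower with knockdown under DMSO and 11 higher and 2 lower under temozolomide. FOSL1, a subunit of the AP-1 factor, was 15.9 ± 1.53 and 37.4 ± 2.23 CPM in control and knockdown cells with DMSO (log2 fold change 1.23, adjusted p = 1.34e-10) and was also higher under temozolomide (1.62, adjusted p = 2.88e-12). The ETS factors ETV4 and ETV5 rose by 0.75 and 0.85 under DMSO (adjusted p = 1.16e-04 and 3.86e-11). None of the 18 was higher and 8 were lower with temozolomide in control cells, and 2 were higher and 6 lower in knockdown cells.

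Promoter sequence was at hand for 23 of the 37 tested members (RefSeq, GRCh38.p14). The 150 bases before the annotated start are shown for 4 members that rose with knockdown under both treatments and, for contrast, for TIMP3, which fell. Capitals mark matches on either strand to the AP-1 letters TGANTCA, the TEAD letters CATTCC and the GC box GGGCGG.
ADAM12, chr10:126388478-126388627, minus strand: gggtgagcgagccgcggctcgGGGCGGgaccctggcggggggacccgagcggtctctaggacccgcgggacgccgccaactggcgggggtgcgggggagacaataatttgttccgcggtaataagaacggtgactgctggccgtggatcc
ADAM19, chr5:157575776-157575925, minus strand: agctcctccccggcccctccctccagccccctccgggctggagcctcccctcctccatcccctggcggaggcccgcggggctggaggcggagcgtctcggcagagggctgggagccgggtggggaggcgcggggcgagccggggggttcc
ADAMTS12, chr5:33891991-33892140, minus strand: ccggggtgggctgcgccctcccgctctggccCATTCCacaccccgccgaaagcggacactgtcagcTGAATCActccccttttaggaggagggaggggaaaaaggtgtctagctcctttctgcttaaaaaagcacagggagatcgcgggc
ADAMTS14, chr10:70672356-70672505, plus strand: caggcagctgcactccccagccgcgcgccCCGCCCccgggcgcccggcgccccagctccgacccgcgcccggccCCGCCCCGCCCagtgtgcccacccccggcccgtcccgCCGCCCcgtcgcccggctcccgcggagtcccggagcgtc
TIMP3, chr22:32801555-32801704, plus strand: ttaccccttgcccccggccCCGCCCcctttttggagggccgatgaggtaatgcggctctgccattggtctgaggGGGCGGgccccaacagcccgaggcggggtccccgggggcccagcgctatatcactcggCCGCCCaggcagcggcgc
In the 250 bases before the start, AP-1 letters were in 2 of the 23 members (8.7%, against 6.57% of 35116 promoters), TEAD letters in 4 (17.4% against 11.9%) and the GC box in 19 (82.6% against 42.6%). The 23 members were all tested genes with 1 promoter each, whereas the 35116 promoters were not limited to tested genes. ADAMTS12 held an AP-1 match 84 to 78 bases and a TEAD match 119 to 114 bases before its start. The printed ADAM19 bases held no match to these 3 motifs. A match is a description of the letters, and binding was not measured.

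Markers of other cell types moved with knockdown and with temozolomide too. The summed level of 8 fibroblast markers was 22.9 to 26.3 CPM in control and 45.9 to 53.8 in knockdown cells with DMSO, and 19.5 to 21.6 against 38.5 to 39.99 with temozolomide, the direction of ADAM12, ADAM19 and the ADAMTS rises. Of these 8, DCN reached at most 1 count and LUM at most 2 counts in any library, and THY1 made up most of the sum. With knockdown under DMSO, 4 of the 6 tested fibroblast markers were called higher and 1 lower. Under temozolomide 5 were called higher and 0 lower. Of 8 macrophage markers only CD68 was tested, their sum was 15.6 to 17.4 CPM in control and 23.2 to 26.5 in knockdown cells with DMSO, AIF1 had no count and CD163 and TYROBP at most 2 counts. The summed level of 6 epithelial markers was 861 to 890.4 CPM in control and 525 to 565 in knockdown cells with DMSO, and 658 to 686 against 371 to 425 with temozolomide, the direction of TIMP2 and TIMP3, while EPCAM and CDH1 stayed at or below 3 counts. The sum of 6 neuron markers was 66.8 to 69.1 CPM in control and 94 to 96.8 in knockdown cells with DMSO, and 76.1 to 78.9 against 98.1 to 106 with temozolomide. All 3 of them that were tested (MAP2, TUBB3 and SYT1) rose with knockdown under both treatments, while RBFOX3, SNAP25 and STMN2 reached at most 8, 7 and 5 counts. The sum of 8 endothelial markers, most of it CDH5, was 46.5 to 51.7 CPM in control and 36.96 to 38.5 in knockdown cells with DMSO, and 26.1 to 27.8 against 21.7 to 22.3 with temozolomide, below the DMSO values as TIMP3 was. With knockdown CDH5 fell under both treatments, whereas 3 of the 5 tested endothelial markers rose under each, and VWF reached at most 8 counts. The sum of the 8 astrocytic markers, which include CD44, was 4918 to 5177 CPM in control and 4741 to 4821 in knockdown cells with DMSO, and 3808 to 4015 and 3818 to 4003 with temozolomide, the direction of the TIMP3, MMP2 and ADAM19 falls with the drug. The part of these genes in the member changes was not tested.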

How the data were processed

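RNA-seq was measured in 12 libraries, 3 in each of 4 groups taken from the labels. The authors' deposited count table holds estimated counts per gene, of which 10.7% to 12.0% per library are not whole, and a second deposited table holds FPKM. The submitters' processing notes list RSEM, StringTie 1.3.1, HISAT2, Bowtie2 2.2.8 and fastp 0.18.0 with no role for any of them. Build, annotation and strand setting are not given in the sources read. Locations and coding transcripts came from GENCODE 29 (GRCh38), joined by gene ID (20171 of 20289).

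Estimated counts were rounded and analysed with edgeR 4.0.16 in R 4.3.3. Genes were kept by filterByExpr (12821), libraries scaled by TMM, and 1 quasi-likelihood model of 4 group means was fitted to all 12 libraries, with a biological coefficient of variation of 3.90%. Benjamini-Hochberg adjustment ran over all genes tested, and a gene was called at an adjusted p below 0.05. The SE is the log2 fold change over the root of F. Intervals are 95% and unadjusted. CPM values were TMM-scaled. Library totals of 13.5 to 24.8 (in units of 1e6 counts) set the precision of low counts.

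Every tested member could be named, with library values for called members whose highest group reached 5 CPM. From each list of related genes, up to 3 called genes with the largest change and at least 5 CPM were named, except an item that is not reported here. ADAMTS1, ADAMTS9, ADAMTS10, ADAMTS12, MMP7 and MMP21, below that level, were added after their values were seen. The members and lists were chosen with earlier results of these data known. All 161 listed symbols were found. Alternatives were relative log expression (RLE) factors, library totals alone, DESeq2 1.42.0, other low-count filters, fits to the compared groups alone, a block for the replicate number, a GC correction (spline with 5 degrees of freedom per library), limma 3.58.1 on log2(FPKM + 1) and log2(FPKM + 0.1), and each library left out.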

Additional observations from a re-analysis of the deposited data

Results flagged for a closer look

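The response to temozolomide differed between control and knockdown cells for ADAM10, the sheddase of CD44 and Notch, and for ADAM15, by a direct test of the difference (edgeR's quasi-likelihood test). For ADAM10 the difference, knockdown minus control, was -0.2736 on the log2 scale (adjusted p = 0.02698), with a rise in control cells and a fall in knockdown cells. Its 3 knockdown DMSO libraries, at 204, 199 and 197 CPM, were above all 9 others. For ADAM15 the difference was 0.2231 (adjusted p = 0.04906). Its 3 knockdown DMSO libraries, at 149.6, 150.4 and 143 CPM, were among its 4 lowest, together with knockdown temozolomide library 3 at 150.4 CPM.

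Neither difference was called after GC correction (ADAM10 -0.17, adjusted p = 0.158; ADAM15 0.08, adjusted p = 0.495), nor on log2(FPKM + 1) (adjusted p = 0.113 and 0.154). The part of GC content in them was not tested beyond this. Without single libraries, the ADAM10 difference was not called when control DMSO library 1, knockdown DMSO library 1 or 3, control temozolomide library 2 or 3 or knockdown temozolomide library 1 was left out, with values from -0.29 to -0.24. The ADAM15 difference was not called without 9 of the libraries, with values from 0.19 to 0.23. It held without control DMSO library 2, control temozolomide library 1 or knockdown temozolomide library 3.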

How the results depend on the processing

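Of 185 results for members, 63 were called. Over 23 settings, 24 of these lost the call under at least 1 of them, 21 under a setting other than leaving out a library, and 16 uncalled results became called. None reversed, counting a change of sign only where a call was made. Uncalled values changed sign 168 times over results and settings. The cause was not tested except where a setting itself uses fewer libraries.

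Members higher with knockdown under DMSO went from 13 to 8 on log2(FPKM + 1) and log2(FPKM + 0.1) (11 to 13 leaving out libraries). On both of these scales only 27 of the 37 members reached 1 FPKM in 3 libraries and were tested. MMP16 and ADAMTS12 were tested there and lost the call. ADAMTS6, ADAMTS9 and MMP21, with highest libraries of 0.9, 0.17 and 0.73 FPKM, were not tested there. Later counts on log2(FPKM + 1) and log2(FPKM + 0.1) rest on the same 27 members. Members lower with knockdown under temozolomide went from 3 to 5 with RLE factors, no low-count filter, only the groups compared and GC correction (3 to 5 leaving out libraries). Temozolomide in control cells called 15 members, and 8, 8 and 9 on log2(FPKM + 1), log2(FPKM + 0.1) and unfiltered FPKM (11 to 16 leaving out libraries, 2 to 4 of them higher). Its 11 lower members became 7 with library totals alone and 5, 5 and 6 on those FPKM scales (8 to 13 leaving out libraries). In knockdown cells, 3 higher members became 5 with library totals alone (2 to 4 leaving out libraries) and 12 lower became 7 on log2(FPKM + 0.1) (8 to 12).

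The difference between responses called 2 members, 1 with RLE factors, and 0 with GC correction and on the 3 FPKM scales (0 to 5 leaving out libraries). Of these, 1 was higher, 0 with RLE factors, GC correction and FPKM, and 2 with DESeq2, no filter and the block (0 to 2 leaving out libraries). The other was lower, 0 with GC correction and FPKM (0 to 3 leaving out libraries). Among all genes it called 135, then 223 with DESeq2, 546 without a filter, 222 with the block, 33 with GC correction and 0 on each FPKM scale with limma (19 to 395 leaving out libraries). At an unadjusted p below 0.05 it held 2279 genes and 8 members, and on the FPKM scales 1650, 1646 and 1982 genes and 6, 5 and 10 members, with 4 members after GC correction. The FPKM scales tested 11541, 11541 and 17130 genes and 27, 27 and 60 members. Temozolomide in knockdown cells called 2854 of all genes and 1875 on unfiltered FPKM. With library totals alone, 61.0%, 61.9%, 68.9% and 70.1% of called genes were higher in the 4 comparisons of 2 groups, against 49.7%, 52.0%, 42.6% and 40.6%.

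The replicate number as a block gave 222 genes in the difference between responses. It added calls for the MMP2 difference (0.24, adjusted p = 0.0369), MMP24 with knockdown under temozolomide (0.99, adjusted p = 0.0233) and MMP19 with temozolomide in control cells (-0.55, adjusted p = 0.0368), and lost ADAMTS9 with knockdown under temozolomide (1.49, adjusted p = 0.0615). Over 18 pairs with equal numbers the correlation was -0.077 to 0.136, and for 6 of 12 libraries the own number gave the highest value, so the numbers were not taken to pair libraries. The 28 untested members were left out for low counts, and whether deeper libraries would show them was not tested.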
